A study of Mus musculus with 5 samples.

Results

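The fragments described here are pieces of the mouse genome, cut at MspI sites, chosen because few of the molecules read from one set of lines of a non-clonal CD8+ T cell population carried methylated and unmethylated CpGs together. Molecules outside those lines showed this pattern at only some of them. The choice was made among fragments with 4 to 19 CpGs, using only molecules with 4 or more methylation calls. A fragment needed 10 or more such molecules in each of 2 clones and 5 or more on both the odd-numbered and the even-numbered lines of the population file, and 63936 fragments met this. Of these, 7152 were intermediate on the odd lines, with 20 to 80% of calls methylated. Of the intermediate fragments, 96 had 20% or fewer mixed molecules on the odd lines and are the members, where a mixed molecule is one that carries both methylated and unmethylated calls. The other intermediate fragments comprised 1046 with over 20 to 50% mixed molecules on those lines and 6010 with over 50%. Only the odd lines chose the members. All population values below come from the even lines, and neither these nor the methylation values of the clones took part in the choice.

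The series holds 5 samples of primary CD8+ T cells from C57BL/6 mice. Clone 1 and clone 2 each have 2 samples, grown from a single sorted cell over 15 labelled cell divisions, and the original non-clonal population has 1 sample. All groups share the same handling per the labels: naive spleen T cells were cultured with IL2 before sorting, with no genotype or drug set between them, and each clone stands for 1 founder cell. The 2 samples of a clone share 1 deposited file, so every clone value below pools 2 samples that cannot be told apart. The labels give no age of the mice, and the cell type could not be checked against markers, because the fragments carry numbers and no gene names.

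In mammals, DNA methylation is copied after replication by DNMT1, which methylates the new strand opposite a methylated CpG, so that the state of a molecule can pass to daughter cells. Neighbouring CpGs on the same molecule tend to share their state. An intermediate level can arise from cells that differ, from the maternal and paternal copies that differ within each cell, as at imprinted genes, or from molecules that are each partly methylated. Calls made on single molecules separate the last of these from the others, and a clone grown from a single cell bears on the first.

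Clone 1 listed 11969176 molecules, clone 2 listed 8977287 and the population 8463942. Of these, 2532814, 2111732 and 1982532 molecules lay on fragments of 4 to 19 CpGs with 4 or more calls. The members held 2525 such molecules in clone 1, 2138 in clone 2 and 916 on the even lines of the population. The median member had 25 molecules in clone 1, 21 in clone 2 and 9 in the population, close to the 25, 22 and 10 of all fragments with coverage. The members had 5 to 19 CpGs, with a median of 7. Intervals below are Wilson 95% intervals of counting error only, and the limit given with a count of 0 is that of 3 molecules. Molecules are told apart by short sequence tags, and separate molecules that drew the same tag cannot be told apart. No test below has replicates, and every p compares the reads of deposited files, not conditions.

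The all-or-none pattern was only partly present in molecules that had not chosen the members. On the even lines of the population, 32.4% of member molecules were mixed (29.5 to 35.5%), while the share on the odd lines, which set the limit, was 13.5%. In clone 1 the mixed share was 34.7% (32.8 to 36.5%) and in clone 2 it was 36.8% (34.8 to 38.9%). The limit of 20% was met again by 34 of the 96 members in clone 1, by 31 in clone 2 and by 29 on the even lines. These were 35.4%, 32.3% and 30.2% of the members, below the 53.3%, 54.9% and 49.8% of all fragments with coverage, most of which were not intermediate. It was met in all 3 by 10 members and in none of them by 39. A fragment with a single uniform kind of molecule also meets the limit. Of the 34 and 31 members that met it in a clone, 20 in clone 1 and 16 in clone 2 also had a middle level, as defined below. Fragment 1188838 met it in all 3 with 0 of 22, 0 of 21 and 0 of 9 molecules methylated in clone 1, clone 2 and the population. The name all-or-none, with both kinds present, therefore holds for only some of these fragments, and the rest are called by the rule that chose them.

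Of the 3 classes of intermediate fragments, the members had the lowest mixed share in every library. Fragments with over 20 to 50% mixed molecules on the odd lines had pooled mixed shares of 52.1% in clone 1, 51.9% in clone 2 and 48.4% in the population, and those with over 50% had 70.5%, 70.5% and 69.98%. The limit of 20% was met in clone 1 by 35.4% of the members, against 14.2% and 4.96% of these classes. Pairs of neighbouring calls on the same molecule differed in 12.5% of pairs in clone 1, 13.6% in clone 2 and 11.98% in the population at the members. At fragments with over 50% mixed molecules they differed in 30.4%, 30.6% and 30.0%. These shares are a description without a test, because the classes were drawn from the same population.

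**Figure D1:**
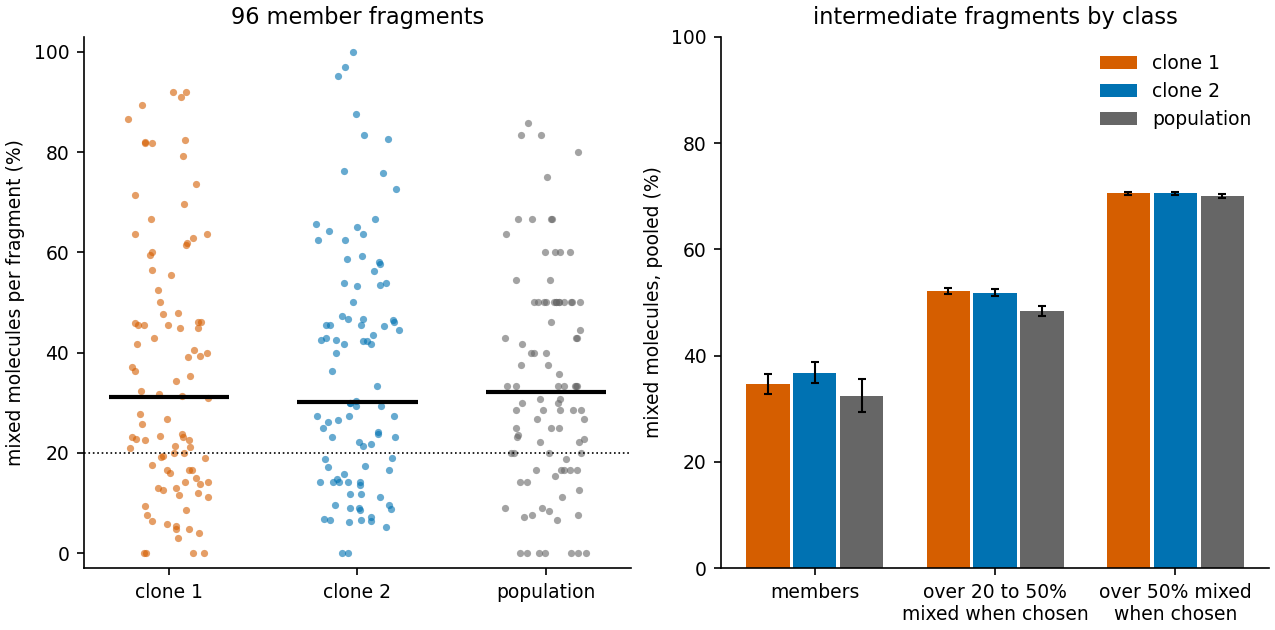
Left, percent of mixed molecules at each of the 96 members (points) in clone 1, clone 2 and the even lines of the population, with the median as a bar and the limit of 20% used on the odd lines as a dotted line. Right, pooled percent of mixed molecules in the members and in both other classes of intermediate fragments, with Wilson 95% intervals; the medians of the members were 31.2, 30.2 and 32.1%, and their pooled shares lay below those of the other classes in all 3 libraries.

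Most mixed molecules of the members departed from a uniform state at a single CpG. In clone 1, 551 of 875 mixed molecules (63.0%) had exactly 1 call that differed from all others, in clone 2 this was 460 of 787 (58.4%), and in the population 194 of 297 (65.3%). The shares were 55.1%, 54.2% and 56.8% at fragments with over 20 to 50% mixed molecules and 48.3%, 46.8% and 47.8% at those with over 50%. Over all fragments with coverage they were higher than at the members, at 68.5%, 67.6% and 69.5%. Where there was 1 differing call, it was the first or the last call of the molecule in 47.0% of cases in clone 1, 48.9% in clone 2 and 39.7% in the population. A single change of state along the molecule, in either direction, was seen in 39.2%, 39.4% and 35.0% of mixed molecules in the same libraries. Molecules whose 1 differing call was at an end are included here and made up most of these in each library. These shares therefore overlap with those of 1 differing call and cannot be added to them. They were 33.7%, 32.6% and 34.6% at fragments with over 20 to 50% mixed molecules. At those with over 50% they were 33.8%, 33.9% and 35.0%.

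Wholly methylated and wholly unmethylated molecules were both present at the members. Molecules with all calls methylated made up 42.1% in clone 1, 39.0% in clone 2 and 35.7% in the population, and those with none methylated 23.2%, 24.2% and 31.9%. Over all fragments with coverage these shares were 40.3%, 39.5% and 38.0%, and 30.3%, 31.6% and 34.3%. Over all intermediate fragments they were lower, at 22.4%, 22.8% and 18.3%, and 10.4%, 10.1% and 15.5%. The shares are pooled over fragments, so they do not show that both kinds met at the same fragment. Both kinds had like numbers of reads per molecule, with means of 1.44 and 1.39 in clone 1, 1.81 and 1.85 in clone 2 and 1.85 and 1.86 in the population. The strands gave no called difference at any member in any library by Fisher's exact test, adjusted by Benjamini-Hochberg, where 0.0172% of all fragments were called in clone 1, 0.00938% in clone 2 and 0.00% in the population. At an unadjusted p under 0.05, 6 members differed between strands in clone 1, 3 in clone 2 and 2 in the population. Of all 63936 fragments, 729, 539 and 150 did so, and of the 7152 intermediate ones 483, 358 and 122, so in clone 1 the members' share was near that of the intermediate fragments. A molecule reads from an end of the fragment, so the strands of a long fragment can cover different CpGs.

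The level of a fragment is given from here on as the percent of its molecules with over 50% of calls methylated. It is called low at 20% or less, high at 80% or more and middle between them. The median level of the members was 65.3% in clone 1, 56.5% in clone 2 and 57.1% in the population. In clone 1, 61 members (63.5%) stood higher than in the population and 27 (28.1%) lower. In clone 2, 50 (52.1%) stood higher and 35 (36.5%) lower. All intermediate fragments leaned the same way, with 57.5% higher and 33.7% lower in clone 1, and 59.0% and 31.4% in clone 2. Both clones were in the middle at 37 of the 96 members (38.5%), against 32.7% of fragments with over 20 to 50% mixed molecules and 22.05% of those with over 50%. At 29 members the clones shared an end, with both high at 22 and both low at 7. A further 29 had a clone in the middle and the other at an end. Opposite ends were seen at a single member, fragment 268166 with 8 CpGs, at which 16 of 20 molecules were methylated in clone 1, 2 of 11 in clone 2 and 6 of 15 in the population. Its difference of 61.8 percentage points between the clones missed the threshold by Fisher's exact test, adjusted by Benjamini-Hochberg over all fragments (adjusted p = 0.0662).

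**Figure D2:**
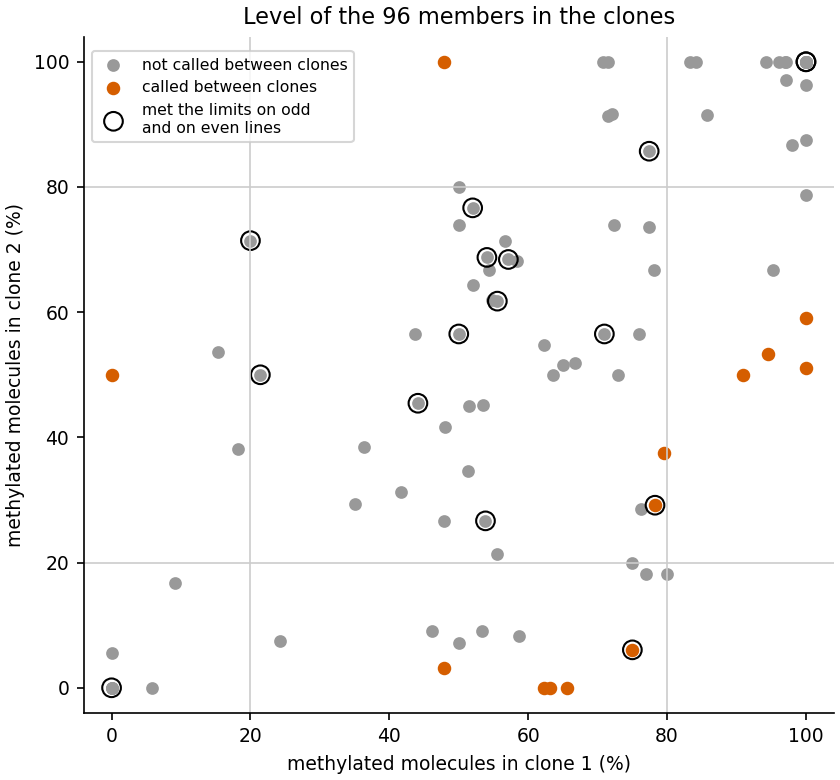
Percent of methylated molecules at each of the 96 members in clone 1 (horizontal axis) and clone 2 (vertical axis), with grey lines at 20 and 80%. Orange points are the 13 members called between the clones and rings mark the 16 members that met the limits on odd and on even lines; 37 members lie in the central square, 22 in the upper right corner, 7 in the lower left corner and 1 in the lower right corner.

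The comparison of each clone with the population asks whether the descendants of 1 founder cell kept the level of the cells it came from. A fragment was called where the adjusted p of Fisher's exact test was under 0.05 and the levels differed by 20 points or more. Between clone 1 and the population, 0.430% of all fragments and 3.06% of all intermediate ones were called, and 0 of the 96 members were. At an unadjusted p under 0.05, 20 members (20.8%) differed, against 3.43% of all fragments and 21.5% of all intermediate ones. Both comparisons with the population use the same population molecules. With only the calls of the deepest CpG in place of whole molecules, 2 members (2.08%) were called. The share of all fragments called was not counted in that setting, so these 2 cannot be set against it.

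Between clone 2 and the population, 0.307% of all fragments and 3 members (3.13%) were called, 1 of them higher (0.246% of all fragments) and 2 lower (0.0610%) in clone 2. Of all intermediate fragments 2.17% were called, 1.73% higher and 0.433% lower in clone 2. At an unadjusted p under 0.05, 14 members (14.6%) differed, against 3.38% of all fragments and 21.7% of all intermediate ones. Fragment 261553, with 5 CpGs, was methylated in 34 of 34 molecules in clone 2 (89.8 to 100%) and in 4 of 9 in the population (18.9 to 73.3%). Clone 1 had 15 of 21 there. Clone 2 was therefore 55.6 points higher than the population (adjusted p = 0.046, Fisher's exact test, adjusted by Benjamini-Hochberg), and clone 1 lay between them.

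Fragment 447597, with 7 CpGs, moved the other way in clone 2. None of its 21 molecules was methylated in clone 2, which allows a level of up to 14.3%, while 10 of 15 were in the population, and clone 1 had 28 of 45. The level in clone 2 was 66.7 points lower than in the population (adjusted p = 0.012, Fisher's exact test). In clone 1 this fragment came close to the all-or-none pattern, with 25 molecules wholly methylated, 15 wholly unmethylated and 5 mixed.

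Fragment 1222568, with 5 CpGs, was methylated in 0 of 18 molecules in clone 2 and in 6 of 8 in the population, with 12 of 19 in clone 1. Clone 2 was 75 points lower than the population (adjusted p = 0.0442, Fisher's exact test). Its molecules were far from all-or-none, with 17 of 19 mixed in clone 1, 8 of 18 in clone 2 and 6 of 8 in the population. At its deepest single CpG the difference was -36.1 points and was not called (adjusted p = 1, Fisher's exact test). With mixed molecules left out, none of these 3 fragments was called (adjusted p from 0.0978 to 1 by Fisher's exact test, adjusted by Benjamini-Hochberg). The differences over the fewer molecules that remained were 83.3 points at 261553, -54.5 at 447597 and -100 at 1222568. Without strands that held over 25 molecules, fragments 261553 and 1222568 also lost their calls, with adjusted p of 0.0543 and 0.0522 and differences that stayed at 55.6 and -75 points.

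Between clone 1 and clone 2, 2.46% of all fragments and 13 of the 96 members (13.5%) were called, and at an unadjusted p under 0.05 27 members (28.1%) differed, against 5.42% of all fragments and 31.3% of all intermediate ones. The share among the members stood near that of the other intermediate fragments, of which 15.9% were called among those with over 20 to 50% mixed molecules and 15.6% among those with over 50%. The clones differed by a median of 13.5 points at the members, against 13.4 and 13.3 points in these classes. Of the 13 called members, 11 were higher in clone 1, where 1.14% of all fragments were called in that direction, and 2 were lower, where 1.32% were. The differences spanned 40.9 to 68.9 points, the population lay between the clones at 9 of the 13, and a clone stood at 10% or less or at 90% or more at 11. With mixed molecules left out, 3 members (3.13%) were called, and the share of all fragments called was not counted in that setting.

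The widest of these differences was at fragment 498854, with 7 CpGs. It was methylated in 27 of 36 molecules in clone 1 (58.9 to 86.2%) and in 2 of 33 in clone 2 (1.68 to 19.6%), against 3 of 6 in the population. The clones were 68.9 points apart (adjusted p = 1.45e-06, Fisher's exact test, adjusted by Benjamini-Hochberg). They also differed in the kind of molecule. In clone 1, 22 were wholly methylated, 8 wholly unmethylated and 6 mixed, while in clone 2, 25 were mixed, 8 wholly unmethylated and 0 wholly methylated. The difference was -3.28 points at the deepest single CpG of the fragment, where the fragment was not called. With mixed molecules left out it was 73.3 points and was not called (adjusted p = 0.0935, Fisher's exact test).

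Fragment 991435, with 11 CpGs, was methylated in 21 of 32 molecules in clone 1 and in 0 of 22 in clone 2, which allows up to 13.6%, with 4 of 13 in the population. The difference was 65.6 points (adjusted p = 5.86e-05, Fisher's exact test). Mixed molecules made up 19 of the 32 in clone 1 and 6 of the 22 in clone 2. Of the other molecules in clone 1, 12 were wholly methylated and 1 was wholly unmethylated. With mixed molecules left out, the difference was 92.3 points and was still called (adjusted p = 0.000381, Fisher's exact test).

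The 2 members that were lower in clone 1 each had a clone at an end. Fragment 1182290, with 12 CpGs, was methylated in 11 of 23 molecules in clone 1 and in 23 of 23 in clone 2, with 2 of 6 in the population (difference -52.2 points, adjusted p = 0.00478, Fisher's exact test). Fragment 721320, with 10 CpGs, was methylated in 0 of 21 molecules in clone 1, which allows up to 14.3%, and in 9 of 18 in clone 2, with 3 of 7 in the population (difference -50.0 points, adjusted p = 0.0126, Fisher's exact test). In clone 2 the 18 molecules of fragment 721320 held 1 wholly methylated, 9 mixed and 8 wholly unmethylated. With mixed molecules left out, its difference was -11.1 points and was not called (adjusted p = 1, Fisher's exact test). Fragment 1182290 was still called without them, at -91.7 points (adjusted p = 0.000343, Fisher's exact test).

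The share of mixed molecules was tested in the same way, without a minimum difference. Between clone 1 and the population, 1.29% of all fragments and 1 member were called, and 9 members (9.38%) differed at an unadjusted p under 0.05, against 10.3% of all fragments and 19.5% of all intermediate ones. The member was fragment 1448084, with 5 CpGs, at which 0 of 31 molecules were mixed in clone 1 and 6 of 12 in the population (adjusted p = 0.0224, Fisher's exact test), lower in clone 1 as were 0.335% of all fragments. All 31 molecules of clone 1 were wholly methylated, while clone 2 had 13 wholly methylated, 7 wholly unmethylated and 2 mixed. Between clone 2 and the population, 1.10% of all fragments and 0 members were called, with 13 members (13.5%) at an unadjusted p under 0.05, against 10.2% of all fragments and 18.5% of all intermediate ones.

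Some members kept both kinds of molecule inside each clone. At 5 members the level was 40 to 60% in all 3 libraries, and these differed in how their molecules were made up. The 4 with the most molecules in their least covered library are given first. At fragment 1430433, with 10 CpGs, clone 1 had 15 wholly methylated, 1 mixed and 18 wholly unmethylated molecules. Clone 2 had 3, 3 and 5 of these kinds, and the population 6, 2 and 6. In clone 1 it was split almost evenly into 2 uniform kinds.

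At fragment 949387, with 7 CpGs, clone 1 had 14 wholly methylated, 11 mixed and 3 wholly unmethylated molecules, clone 2 had 13, 2 and 8, and the population 6, 1 and 8. Few molecules were mixed in clone 2 and in the population, and more in clone 1. Fragment 513655, with 13 CpGs, had 21, 9 and 13 molecules of these kinds in clone 1, 13, 19 and 10 in clone 2, and 7, 5 and 2 in the population. Mixed molecules made up 20.9% in clone 1 and 45.2% in clone 2, a difference that was not tested.

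Fragment 1543016, with 10 CpGs, had a like level in the clones but few wholly methylated molecules. It had 1 wholly methylated, 25 mixed and 29 wholly unmethylated molecules in clone 1, 0, 27 and 19 in clone 2, and 1, 5 and 4 in the population. Its intermediate level therefore came from mixed and unmethylated molecules. The fifth, fragment 1544545, with 10 CpGs, was alike, with 3, 15 and 15 of these kinds in clone 1, 1, 26 and 13 in clone 2, and 0, 6 and 4 in the population.

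Across the members, 8 were in the middle with 20% or fewer mixed molecules in both clones, against 10 of the 1046 and 0 of the 6010 other intermediate fragments and 24 of all 63936. These 8 were chosen on the values given here, so they carry no test. Fragment 863430, with 12 CpGs, had 14 wholly methylated, 7 mixed and 15 wholly unmethylated molecules in clone 1, 17, 4 and 13 in clone 2, and 5, 1 and 2 in the population. The same kinds at fragment 1540002, with 5 CpGs, numbered 11, 1 and 13 in clone 1, 5, 0 and 7 in clone 2, and 1, 0 and 7 in the population. Its level was thus 48.0% in clone 1, 41.7% in clone 2 and 12.5% in the population, where 8 molecules were read.

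The members with the most CpGs had every molecule counted as methylated in both clones, though over 20% of those molecules were mixed. Fragment 887308, with 19 CpGs, was methylated in 22 of 22 molecules in clone 1, 13 of 13 in clone 2 while the population had 5 of 6. Fragment 772325, with 18 CpGs, was methylated in 21 of 21, 20 of 20 and 3 of 5 molecules in the same libraries. Mixed molecules numbered 5 of 22 in clone 1 and 3 of 13 in clone 2 at 887308, and 5 of 21 and 5 of 20 at 772325. Fragment 733459, with 10 CpGs, stood at the other end, with 0 of 26 molecules methylated in clone 1 (a level of up to 11.5%), 0 of 14 in clone 2 (up to 21.4%) while 4 of 13 were methylated in the population.

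The limits of the rule were met on odd and on even lines by 16 of the 96 members. In these 16 the mixed share was 17.7% in clone 1 (14.4 to 21.5%) and 22.9% in clone 2 (18.9 to 27.3%), against 38.2% and 39.9% in the other 80. Both clones were in the middle at 10 of the 16 and at 27 of the 80, and 2 of the 16 were called between the clones, fragments 498854 and 215077. The even lines took part in this choice and the clones did not. The population is where the clones came from, so the values are given without a test.

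**Figure D3:**
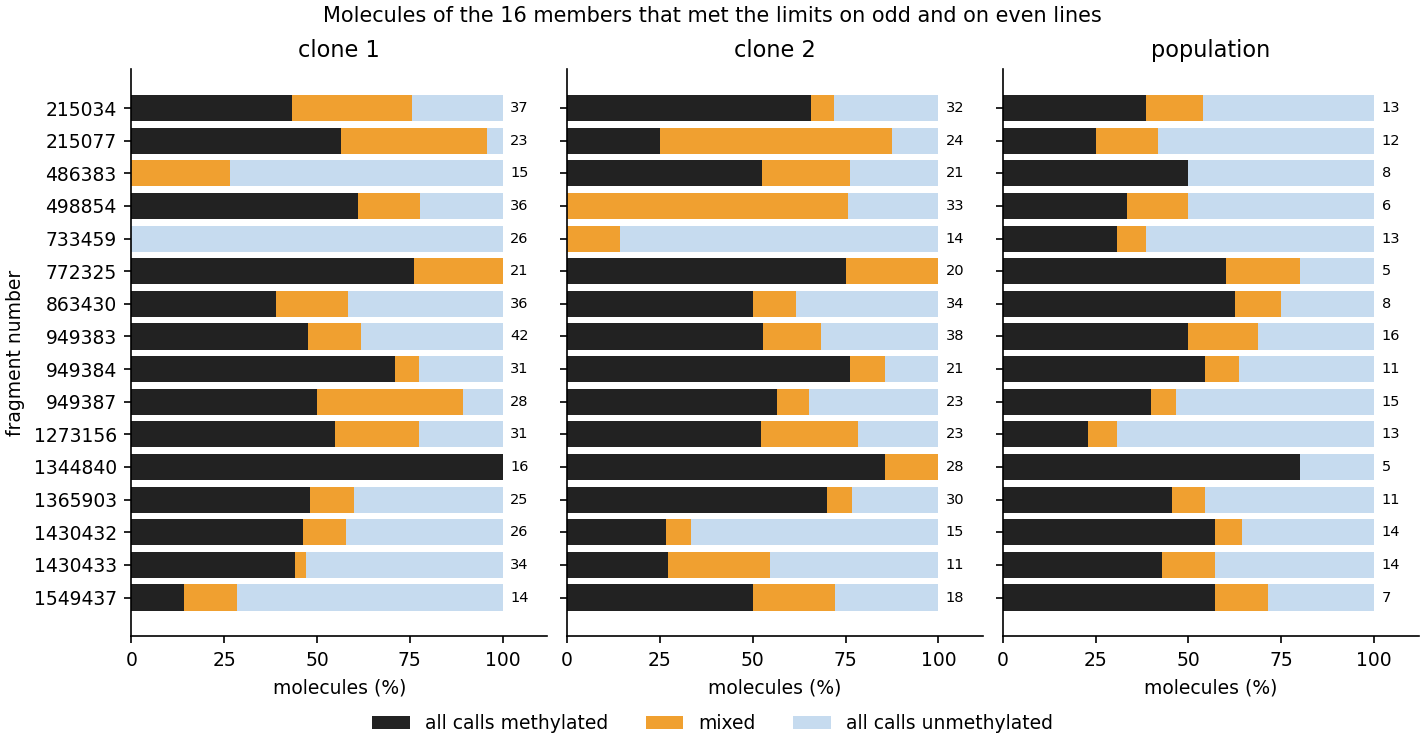
Percent of molecules with all calls methylated, mixed, or with all calls unmethylated at each of the 16 members that met the limits on odd and on even lines, in clone 1, clone 2 and the even lines of the population, with the number of molecules at the right of each bar. Both uniform kinds are present in both clones at fragments such as 863430, 949383 and 1430432, while 772325, 1344840 and 733459 hold a single uniform kind in the clones.

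The limit of 20% mixed molecules cut through fragments with near values on the odd lines. Just inside it were fragments 1592784, 650845 and 455360, each at 20.0%, with 20, 15 and 10 molecules. Just outside were fragments 1069869 at 21.1% of 19 molecules, 759770 at 21.4% of 14 and 1389112 at 21.7% of 60. Members had 5 to 23 molecules on the odd lines, with a median of 9. At the deepest of them 1 molecule moves the share by several points. At those with 5 molecules, such as fragment 128517, 1 molecule moves it by 20 points, the whole width of the limit.

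Members with many CpGs were more often in the middle in both clones. Of the 30 members with 10 to 19 CpGs, 19 were, against 6 of 25 with 7 to 9 CpGs and 12 of 41 with 4 to 6 CpGs. Members made up 1.93% of the intermediate fragments with 10 to 19 CpGs, against 1.06% with 7 to 9 and 1.27% with 4 to 6. Of all fragments with coverage they made up 0.134%, 0.121% and 0.195%, so the order depended on the denominator. These counts are a description.

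The files give each fragment a number and no position, so genes, positions and sequences were not analysed here. The members were spread over the whole range of numbers, with 2 to 10 in each block of 100000 numbers below 1500000. From 1500000 upwards there were 22 members, numbered 1520152 to 1592787. In that block 29.9% of the fragments with coverage were intermediate, against 10.3% of those below it, with a like depth of 27, 23 and 10 molecules per fragment in clone 1, clone 2 and the population.

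Members of the last block stood apart in these counts, which carry no test. Both clones were in the middle at 16 of the 22 (72.7%), against 21 of the 74 others (28.4%), and they shared an end at 0 of the 22, against 29 of the 74. Their molecules were more often mixed, with 49.8% in clone 1, 52.6% in clone 2 and 39.3% in the population, against 29.9%, 31.9% and 30.3% in the others. All intermediate fragments of the block showed a like excess, with 54.9% in the middle in both clones, against 19.5% below it. Which chromosome or sequence class the block holds was not analysed here.

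**Figure D4:**
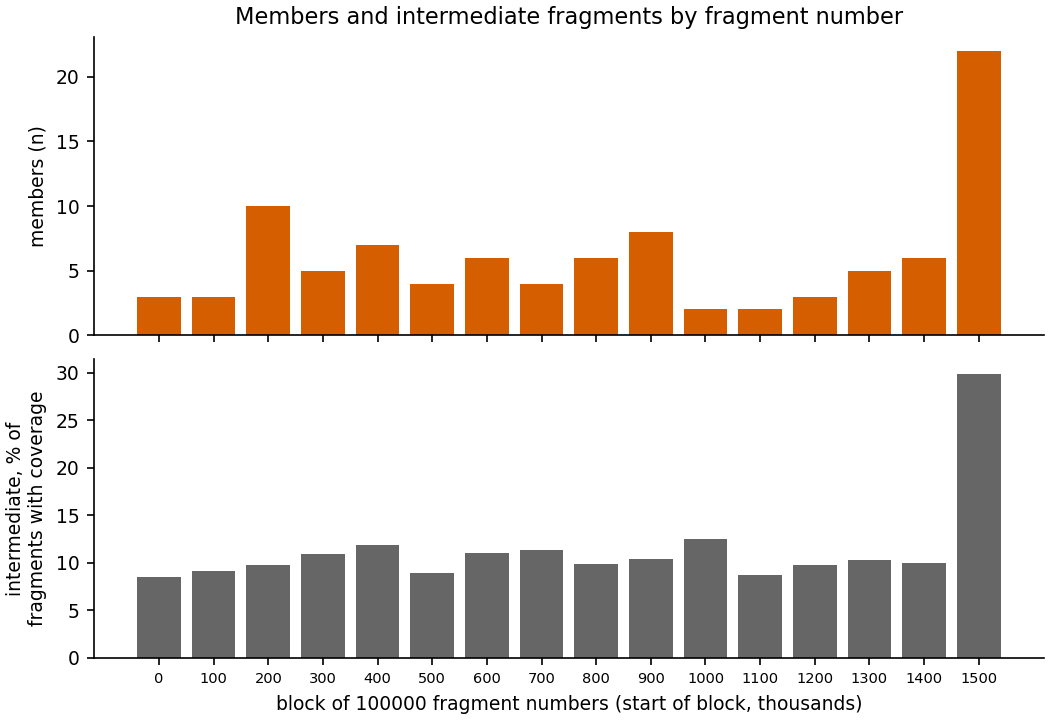
Number of members (upper panel) and percent of covered fragments that were intermediate on the odd lines (lower panel) in each block of 100000 fragment numbers. The last block holds 22 members and 29.9% intermediate fragments, while the other blocks hold 2 to 10 members and 8.52 to 12.5% intermediate fragments.

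Fragments next to a member in number were often intermediate too. For 27 members at least 1 fragment with the next lower or next higher number had coverage, giving 31 neighbours, of which 6 were members. In clone 1, 22 of the 31 (71.0%) were in the middle, in clone 2 18 (58.1%) and in the population 22 (71.0%). Next to fragments with over 20 to 50% mixed molecules these shares were 58.0%, 51.8% and 60.8%, nearest to those of the members. Next to those with over 50% they were 33.3%, 33.7% and 39.5%, and next to all fragments with coverage 6.50%, 6.65% and 6.86%. Consecutive numbers are not known to be adjacent on the genome from these files alone.

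Members also lay in groups of close numbers. Counting members 20 numbers or fewer apart, a distance set after the values were seen, 17 members fell into 7 groups, the largest with 5. No such count is given for the other classes. Fragments with over 20 to 50% mixed molecules lay among or beside the members of some groups, such as 215041, 949370 and 1430431. In the largest group fragment 949383, with 14 CpGs, was methylated in 24 of 42 molecules in clone 1, 26 of 38 in clone 2 and 10 of 16 in the population. Its neighbour 949384, with 8 CpGs, had 24 of 31, 18 of 21 and 6 of 11. Most molecules of both fragments were uniform, with 6 of 42 and 2 of 31 mixed in clone 1.

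The other members of the group were 949369, 949374 and 949387. Fragment 949369, with 5 CpGs, was high throughout, with 30 of 35 molecules methylated in clone 1, 32 of 35 in clone 2 and 6 of 7 in the population. At fragment 949374, which has 17 CpGs, 10 of 18, 3 of 14 and 3 of 6 molecules were methylated in the same libraries. Consecutive numbers were also held by 1430432 and 1430433 and by 650844 and 650845. Fragments 1430432 and 1430433 had 14 of 26 and 15 of 34 methylated molecules in clone 1, 4 of 15 and 5 of 11 in clone 2, and 9 of 14 and 6 of 14 in the population. Fragments 650844 and 650845 had higher levels, with 24 of 31 and 48 of 49 in clone 1, 28 of 38 and 39 of 45 in clone 2, and 7 of 14 and 9 of 13 in the population, and 18 of 38 and 19 of 45 of their clone 2 molecules were mixed.

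**Figure D5:**
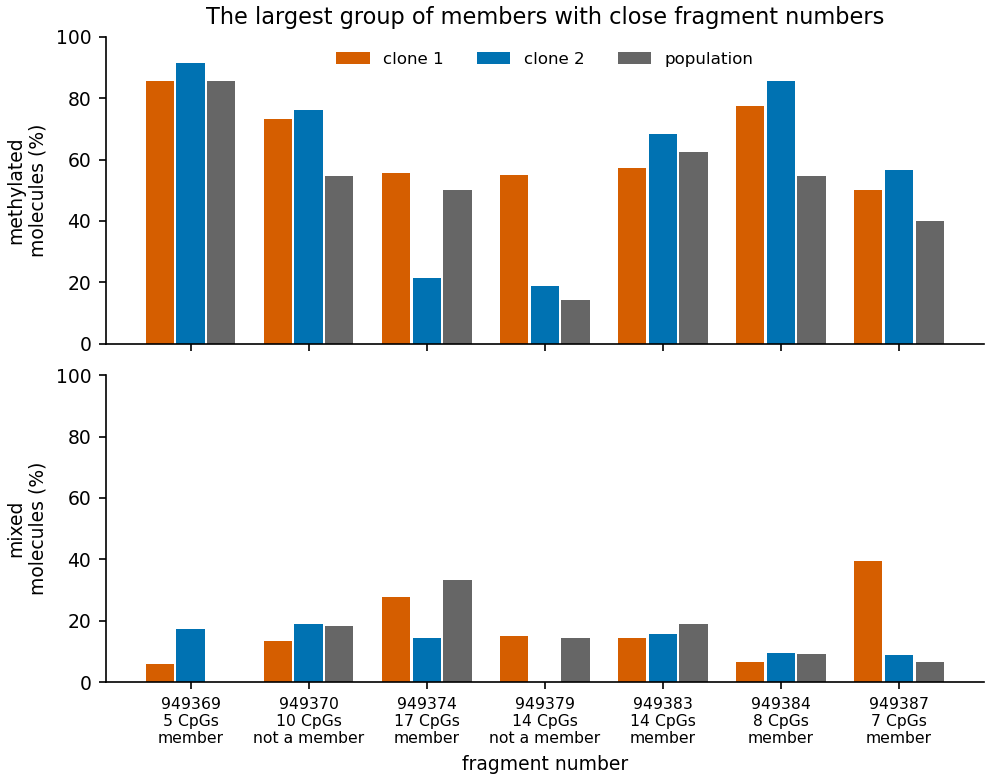
Percent of methylated molecules and percent of mixed molecules in clone 1, clone 2 and the even lines of the population at the 5 members of the largest group and at the fragments between them that had coverage but were not members. The levels at 949383 were 57.1% in clone 1, 68.4% in clone 2 and 62.5% in the population, while 949369 was above 80% in all 3.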

How the data were processed

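MspI fragments of genomic DNA were tagged, bisulfite converted and sequenced in 5 samples. The authors deposited 1 file for each clone and 1 for the population, and name Bismark and mm9 in the submitters' processing notes, with the version and filters not given. Each line of the deposited files, which have no header, holds a fragment number, a strand, a tag, a string with 1 character per CpG the read count behind the tag, and a last value, a score of unstated meaning. The deposited strings were used as they stand, and each line was taken as 1 molecule. The files were read with Python 3.11.15, numpy 2.4.6, pandas 2.3.3 and scipy 1.17.1, and drawn with matplotlib 3.10.9.

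Molecules with 4 or more calls were kept. Methylated molecules (over 50% of calls) were compared between libraries by two-sided Fisher's exact tests with Benjamini-Hochberg adjustment over 63936 fragments, called at a difference of 20 points with adjusted p under 0.05, and mixed molecules by the adjusted p alone. The comparison of each clone with the population was also run on simulated independent molecules, with results not given here. The comparison between the clones was not simulated. Molecules behind each value set its precision, and no replicate spread could be had, since both samples of a clone share a file.

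Fragments named are, per comparison and direction, the 2 called members with the widest difference, the 4 members at 40 to 60% in all libraries with the most molecules in the least covered one, and the 2 with the most CpGs. Others (268166, 1448084, 1544545, 863430, 1540002, 733459, the pairs and groups of close numbers) were chosen after their values were seen. The members and lists were chosen with earlier results of these data known. Alternatives covered the choosing lines, limits, depth, reads, strands, CpGs used and the call. Positions, genes and sequences were not analysed here.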

Additional observations from a re-analysis of the deposited data

Results flagged for a closer look

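At 4 named members the clones differed from each other by Fisher's exact test, adjusted by Benjamini-Hochberg over all fragments, with no replicates. Clone 1 was 68.9 points higher than clone 2 at fragment 498854 and 65.6 points higher at fragment 991435. The difference was -52.2 points at fragment 1182290 and -50.0 points at fragment 721320, both lower in clone 1. With mixed molecules left out, fragments 498854 (73.3 points) and 721320 (-11.1 points) were not called. Fragments 991435 (92.3 points) and 1182290 (-91.7 points) were still called.

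The last value of each line, whose meaning is not given, was used in no main comparison. An alternative left out molecules with a value above 0, which gave 91 members, 12 of them called between the clones. It was above 0 in 2.34% of member molecules in clone 1, 2.62% in clone 2 and 2.29% in the population, against 2.22%, 3.05% and 2.46% over all fragments with coverage.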

How the results depend on the processing

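Of 165 values that answer a comparison, 95 stayed within their limit of change under 16 alternatives. The number of members was the least stable: 23 with 10% or fewer mixed molecules on the choosing lines, 47 with a level of 30 to 70%, 42 with 10 population molecules, 49 with 20 molecules in each clone, 20 with 2 or more reads, 48 on the plus strand, 44 on the minus strand and 282 with mixed judged on the first 4 calls. Choosing on the even lines gave 101 members, of which 16 were shared.

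Members called between the clones, 13 as reported, numbered 3, 7 and 5 under the stricter mixed limit, the narrower level and 10 population molecules, 2 with 2 or more reads, 5 and 2 on the plus and minus strands, 3 with uniform molecules only and 37 on the first 4 calls. As shares of the members in each setting, in the same order, these were 13.0%, 14.9%, 11.9%, 10.0%, 10.4%, 4.55%, 3.13% and 13.1%, against 13.5% as reported. The share of all fragments called was not counted in any of these settings. Between clone 2 and the population the 3 calls became 1 with the narrower level, 0 with 2 or more reads, 0 on either strand, 1 without deep strands, 0 with uniform molecules only and 7 on the first 4 calls. Between clone 1 and the population the 0 calls became 1 with the lines swapped, 2 on inner CpGs, 2 at the deepest CpG and 8 on the first 4 calls. Calls of mixed molecules in clone 1 were 0 with the lines swapped, the stricter mixed limit, the narrower level, 2 or more reads or the plus strand, and 3 on inner CpGs, and in clone 2 they were 2 with the lines swapped, 6 on inner CpGs and 3 on the first 4 calls.

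The mixed share was 36.7% in clone 1 with the lines swapped. It was 18.2% in clone 1, 25.1% in clone 2 and 19.4% in the population under the stricter mixed limit, 31.0% and 33.7% in the clones with 10 population molecules, 47.1% in clone 2 and 37.8% in the population with 2 or more reads, 48.9%, 46.7% and 38.5% on the plus strand, 38.9%, 42.5% and 40.6% on the minus strand, 30.0%, 34.5% and 29.3% on the first 4 calls, and 29.9% and 31.9% in the clones without fragments numbered 1500000 or higher. Members in the middle in both clones made up 56.5% under the stricter mixed limit, 51.1% with the narrower level, 52.4% with 10 population molecules, 51.0% with 20 clone molecules and 28.4% without the last block. A shared end was found at 17.4%, 10.6%, 19.05% and 18.4% under the first 4 of these and at 41.7% on the plus strand. Opposite ends were found at 0% under the stricter mixed limit, the narrower level, 20 clone molecules, 2 or more reads or the minus strand.

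Of 72 values of single named fragments, 58 kept their direction and call, 13 lost the call and 1 reversed: fragment 498854 at its deepest CpG, at -3.28 points. Only settings in which the fragment stayed a member are counted here. With the lines swapped, fragment 498854 alone of these fragments stayed a member. The cause was not tested; limits that keep fewer members also lower counts by construction. The first 4 calls, the last value and the last block were chosen after seeing the data. No paired analysis was possible because both replicates of a clone share 1 deposited file, and leaving out each replicate was not run for the same reason. Depth limits the population most, with a median of 9 molecules per member, at which a count of 0 allows a level of up to 33.3%.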
